A study of Mus musculus with 12 samples.

Results

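ALPN-202 tumors were compared with anti-PD-L1 tumors, 4 of each, out of 12 MC38/hPD-L1 tumors profiled by RNA-seq. The 8 tumors were taken by their treatment labels alone, without reference to any measured value, and every gene of the count table entered the comparison. All tumors grew under the skin of female C57BL/6NJ mice aged 8 to 10 weeks from MC38, a mouse colorectal adenocarcinoma line, transduced with human PD-L1, since the mouse protein is not bound by ALPN-202. Mice received 1 intraperitoneal injection on day 8 of 100 µg ALPN-202, 100 µg of the anti-human PD-L1 antibody durvalumab or, in the 4 tumors used here only as background, 75 µg of an Fc control protein, and tumors were harvested 72 h later. The comparison asks what is seen in tumors given CD28 costimulation together with PD-L1 and CTLA-4 blockade, beyond PD-L1 blockade alone.

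CD28 is the costimulatory receptor of T cells. Its ligands CD80 and CD86 sit on antigen-presenting cells and are bound more tightly by CTLA-4, which withholds them from CD28. PD-L1 engages the inhibitory receptor PD-1 on T cells, and durvalumab, an antibody to human PD-L1, blocks that contact. ALPN-202 is a variant CD80 domain fused to an Fc, made to bind PD-L1 and CTLA-4 and to engage CD28 when it is held on PD-L1. Activated CD8 T cells release granzymes and perforin, which kill target cells, and IFNγ, which drives antigen presentation and antimicrobial GTPases in neighbouring cells.

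Total counts were 3988266 to 10320376 per ALPN-202 tumor and 8778710 to 10448187 per anti-PD-L1 tumor, and levels are given as CPM, counts scaled to a common library size with TMM factors. Bulk RNA mixes tumor, immune and stromal transcripts, so more cells of a type and more RNA per cell cannot be told apart. A pair of libraries, ALPN-202 tumor 4 and Fc control tumor 1, ran high in short transcripts and low in long ones: the median gene of the shortest length class stood 1.00 above the middle of the 12 tumors in ALPN-202 tumor 4 on the log2 scale, that of the longest class 0.78 below it, whereas the other 7 tumors compared lay between -0.15 and 0.14 in both classes. The summed level of adipocyte genes was 1815 CPM in ALPN-202 tumor 4, 10191 and 2068 CPM in anti-PD-L1 tumors 2 and 4 and 1356 CPM in Fc control tumor 4, against 109 to 288 CPM in the other 8. The keratinocyte and epithelium list followed this order only in part. On the log2 scale its level was 1.34 in anti-PD-L1 tumor 2 and 1.21 in Fc control tumor 4. It was -0.63 in ALPN-202 tumor 4, -0.10 in anti-PD-L1 tumor 4 and 0.85 in ALPN-202 tumor 2. Its members differed: Krt18 was at 239 and 43.5 CPM in anti-PD-L1 tumors 2 and 4, 18.5 in Fc control tumor 4 and 15.7 in ALPN-202 tumor 4. In the other 8 it was at most 0.836 CPM, whereas Krt5 was highest in ALPN-202 tumor 2 (102 CPM). Results are therefore given for all 12 tumors, without the pair with the length trend and, where it matters, without the 4 adipocyte-high tumors. The defining markers of T cells (Cd3e), cross-presenting dendritic cells (Xcr1) and macrophages (Csf1r) were detected in every tumor.

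Across 14142 genes, no gene passed an adjusted p of 0.05 in edgeR's quasi-likelihood test of all 12 tumors (0% called; lowest adjusted p 0.313). At an unadjusted p under 0.05, 965 genes were higher in ALPN-202 tumors (6.82%) and 350 lower (2.47%), which became 573 and 199 without anti-PD-L1 tumor 4 and 780 and 209 without ALPN-202 tumor 1. The split depended on the scale: it was 636 and 555 with library size only, and 315 and 538 with limma on log2(TPM + 1), where the median of all genes shifted from 0.07 to -0.24. DESeq2 called 158 genes higher and 44 lower on the same counts, and limma-voom with sample quality weights 1647 and 342. Without ALPN-202 tumor 4 and Fc control tumor 1, edgeR called 647 of 14382 genes higher (4.5%) and 101 lower (0.702%). With ALPN-202 tumor 4 alone left out, no gene passed in edgeR (lowest adjusted p 0.0692; with unadjusted p under 0.05, 1329 higher and 478 lower). Of the 647 and 101 genes, 640 and 101 were also tested in all 12 tumors, where 640 and 75 had the same direction, and 405 and 43 of these an unadjusted p under 0.05. ALPN-202 tumor 4, left out of that test, lay below the highest anti-PD-L1 tumor for 462 of the 640 higher genes and above the lowest for 63 of the 101 lower genes. Below, a gene is said to have risen or fallen only where it passed this test without the 2 libraries, and "higher" or "lower" otherwise describes the values. The paper reports an ALPN-202 mouse without raised immune markers and speculates that its dose was incomplete. Whether ALPN-202 tumor 4 came from that mouse was not tested. On the deposited TPM, ALPN-202 tumor 4 was lowest of its group for Cd8a (8.7), Cd3e (5.82), Gzmb (65.5) and Icos (1.57). It was not lowest for Ifng (21.7) or Cd3d (39.5). The rises named below therefore leave out a tumor that was low in several T cell genes. On CPM, the 4 tumors of one group lay wholly above the 4 of the other for 679 genes that were higher in ALPN-202 tumors (4.8%) and 389 that were lower (2.75%). On the deposited TPM these were 194 and 862 genes. Over all 14142 genes the log2 fold change was positive for 8119 and negative for 6023. Counts within lists, of positive members too, are read against the shares of all genes in this paragraph. Separation of groups below refers to CPM. On TPM, ALPN-202 tumor 4 lay inside or below the anti-PD-L1 range for Cd8a, Cd3e, Themis, Ctla4, Cd274, Ly6c2, Xcr1 and Arg1, among others. Gzmb, Pdcd1, Cxcr6 and Clec9a stayed separate there.

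T cell transcripts made up the lists with the highest medians. All 7 tested T cell receptor and CD3 chains and all 3 coreceptor genes were higher in ALPN-202 tumors at an unadjusted p under 0.05, with median log2 fold changes of 1.66 and 1.90 against 0.07 over all genes tested. Cd8a, the CD8 coreceptor chain, was at 57.9, 34, 41.3 and 24.5 CPM in ALPN-202 tumors and at 14.9, 14, 9.42 and 4.09 CPM in anti-PD-L1 tumors, beside 5.5 to 15.4 CPM in Fc control tumors. The groups did not overlap on CPM, and the log2 difference was 1.90 ± 0.42 (SE; edgeR unadjusted p = 0.000723). Without the 2 libraries Cd8a rose 4.12-fold (edgeR adjusted p = 0.0256). Cd3e, a signalling chain of the receptor complex, was at 16.1, 11.4, 14.4 and 7.51 CPM against 3.61, 6.62, 4.47 and 1.42 CPM and also rose without the 2 libraries (log2 fold change 1.76, edgeR adjusted p = 0.0363). Cd4, the coreceptor of helper and regulatory T cells, overlapped between groups (8.11, 6.29, 7.08 and 4.57 CPM against 3.83, 5.41, 3.17 and 1.69 CPM) and did not pass (log2 fold change 0.99, edgeR adjusted p = 0.169 without the 2 libraries).

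Proximal T cell receptor signalling genes were positive in 21 of 21, with 17 at an unadjusted p under 0.05, a median of 1.43 and 15 that rose without the 2 libraries. Among all genes tested 8119 of 14142 were positive, 6.82% were higher at that p and 4.5% rose. Themis, a regulator of receptor signalling in T cells, was at 8.11, 4.67, 5.08 and 3.27 CPM in ALPN-202 tumors and 1.09, 1.7, 0.653 and 0.267 CPM in anti-PD-L1 tumors, and rose 6.26-fold without the 2 libraries (edgeR adjusted p = 0.0235). The adaptor Skap1 followed the same order (log2 fold change 2.25, edgeR adjusted p = 0.0287 without the 2 libraries). Both groups of 4 were separate for both genes.

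The genes of the proteins that the agents bind, and their partners, were higher as well. In the CD28 and B7 families 12 of 12 were positive, 9 at an unadjusted p under 0.05 and 7 with groups that did not overlap, and 8 rose without the 2 libraries. Pdcd1, which encodes PD-1, was at 32, 24.3, 27.4 and 31.3 CPM in ALPN-202 tumors and 6.56, 11.4, 5.69 and 1.96 CPM in anti-PD-L1 tumors, a gap with no overlap (log2 fold change 2.17 ± 0.46 SE, edgeR unadjusted p = 0.00052). It rose 4.28-fold without the 2 libraries (edgeR adjusted p = 0.0279). Cd28 itself was at 11.4, 8.39, 7.18 and 2.29 CPM against 2.62, 3.41, 2.24 and 1.6 CPM. ALPN-202 tumor 4 fell inside the anti-PD-L1 range, and without the 2 libraries Cd28 rose 3.56-fold (edgeR adjusted p = 0.0232). Ctla4 was at 19.8, 11.7, 18.2 and 13.4 CPM against 6.12, 7.12, 5.13 and 2.22 CPM and rose 3.16-fold without the 2 libraries (edgeR adjusted p = 0.0287). Mouse Cd274, encoding mouse PD-L1, was at 300, 206, 194 and 169 CPM against 142, 104, 104 and 84.4 CPM, without overlap on this scale (log2 fold change 1.00 ± 0.24 SE). The human PD-L1 transgene was not analysed here. The ligand genes Cd80 and Cd86 rose without the 2 libraries (log2 fold changes 0.88 and 0.87, edgeR adjusted p = 0.0356 and 0.0425), but Icos, a second costimulatory receptor, did not pass (1.55, adjusted p = 0.0792). On the deposited TPM scale, Pdcd1 averaged 28.6 ± 7.57 (SD) in ALPN-202 tumors, Ctla4 16.2 ± 6.73 and Cd28 3.58 ± 2.16. TPM divides counts by gene length and does not remove the length trend of a library. On that scale Cd274 was at 52 in ALPN-202 tumor 4, below the anti-PD-L1 range of 58.9 to 87.7. Ctla4, at 7.7 in that tumor, lay inside the anti-PD-L1 range of 2.91 to 8.13. Pdcd1, at 18.1, stayed above its range of 2.56 to 13.1. With the length trend removed by offsets, log2 fold changes in all 12 tumors were 2.05 for Pdcd1, 1.53 for Ctla4 and 1.02 for Cd274. The edgeR adjusted p was 0.248 for each.

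**Figure D1:**
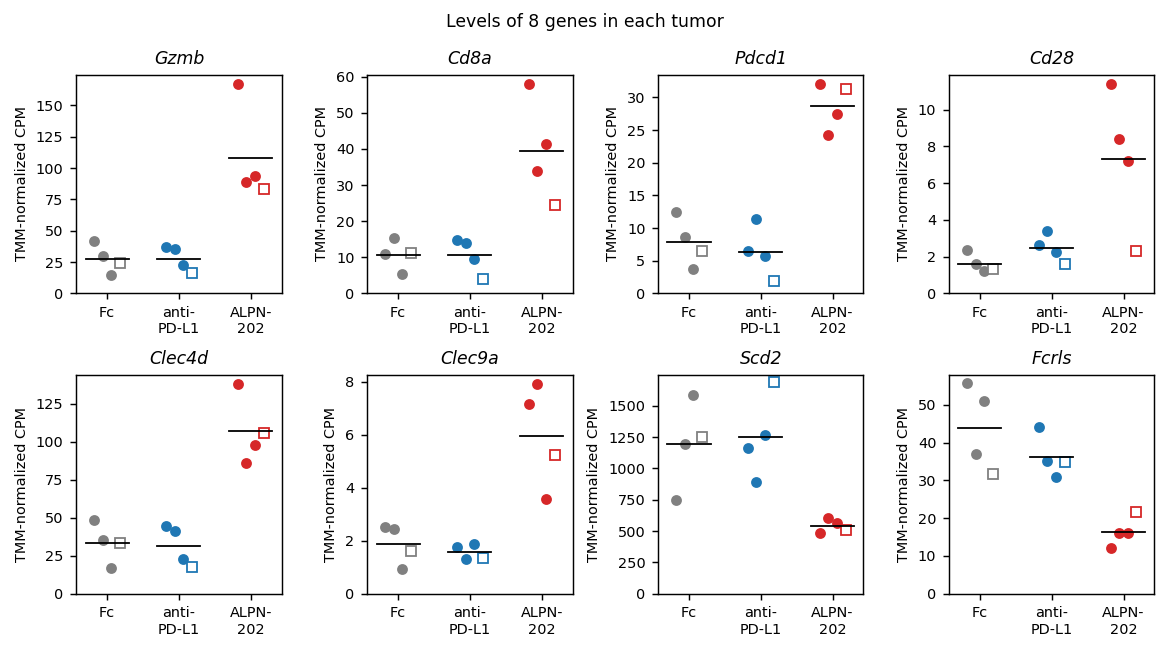
TMM-normalized CPM (vertical axes, from 0) of 8 genes in the 4 tumors of each group; points are tumors, the open square is replicate 4 and the bar is the group mean. Gzmb lay at 83.6 CPM or above in every ALPN-202 tumor and at 37.1 or below in every anti-PD-L1 tumor, and Scd2 and Fcrls show the opposite order.

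Cytotoxic effector genes were positive in 16 of 16 tested, 14 at an unadjusted p under 0.05 and 12 with groups that did not overlap, against 4.8% of all genes. Gzmb (granzyme B; NCBIM37 chr14:56877693-56881097) had the smallest p of the named genes. It was at 167, 88.9, 94 and 83.6 CPM in ALPN-202 tumors and 37.1, 35.1, 22.8 and 16.1 CPM in anti-PD-L1 tumors, beside 15 to 41.8 CPM in Fc control tumors. The log2 difference was 1.97 ± 0.36 (SE; edgeR unadjusted p = 0.000166), and Gzmb rose 4.13-fold without the 2 libraries (edgeR adjusted p = 0.0232). Nkg7, a cytotoxic granule protein, was at 55, 32.8, 37 and 33.3 CPM against 13.6, 14.4, 12 and 6.84 CPM and rose with it (log2 fold change 1.80, edgeR adjusted p = 0.0235). Gzmk, a granzyme of a separate T cell subset, was too low to be tested in all 12 tumors. It had the largest rise among the named genes without the 2 libraries (13.1-fold, edgeR adjusted p = 0.0299). Its highest values, which help it pass the count filter, were in ALPN-202 tumors, so this call is no separate support. The size of the fold rests on anti-PD-L1 levels near 0. Without the 4 adipocyte-high tumors its log2 fold change was 3.68 (edgeR adjusted p = 0.266), in a fit where no gene passed (lowest adjusted p 0.258). The TPM of Gzmk was at most 0.343 in anti-PD-L1 tumors, 0.835 to 3.64 in ALPN-202 tumors and 0.174 to 1.13 in Fc control tumors. Ifng was at 18.3, 9.15, 8.08 and 23.5 CPM against 7.76, 6.32, 3.92 and 4.44 CPM, separate by a narrow gap, and did not pass without the 2 libraries (log2 fold change 1.05, edgeR adjusted p = 0.176).

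Receptors that mark dysfunctional or natural killer-like lymphocytes moved with these genes. Of 11 inhibitory receptors outside the CD28 family all were positive and 7 rose without the 2 libraries, and of 13 NK cell receptors all were positive and 4 rose. Cd160, an inhibitory receptor of cytotoxic lymphocytes, was at 4.68, 3.05, 4.29 and 3.92 CPM against 0.328, 1.2, 0.932 and 0.444 CPM and rose 5.29-fold (edgeR adjusted p = 0.0235). The chemokine receptor Cxcr6, which marks tissue-resident T cells, was at 34.7, 23.4, 23.9 and 31.7 CPM against 7, 6.52, 6.06 and 2.67 CPM and rose 4.82-fold (edgeR adjusted p = 0.0232). Cxcl16, which encodes the ligand of Cxcr6 and comes largely from myeloid cells, was higher in every ALPN-202 tumor (342 to 479 CPM against 128 to 263 CPM) and missed the threshold (edgeR adjusted p = 0.0547 without the 2 libraries).

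Transcription factors and regulatory T cell genes were uneven. Tbx21 (T-bet), which drives type 1 effector T cells, rose without the 2 libraries (log2 fold change 2.01, edgeR adjusted p = 0.0356), although ALPN-202 tumor 4, at 2.61 CPM, lay inside the anti-PD-L1 range of 0.889 to 4.31 CPM. Tcf7, which marks naive and stem-like T cells, was at 27.2, 26.3, 30.8 and 15.3 CPM against 30, 25, 25.9 and 33.2 CPM, with a log2 difference of -0.18 ± 0.22 (SE). Foxp3, the factor that defines regulatory T cells, was at 8.25, 3.81, 6.78 and 1.96 CPM against 3.61, 3.91, 1.86 and 1.33 CPM and did not pass (log2 fold change 1.20, edgeR adjusted p = 0.109 without the 2 libraries). Of 13 regulatory T cell genes 12 were positive, 2 rose and the median was 0.98.

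Ratios within each tumor set these genes against T cell lineage genes. Over 8 pairs an exact two-sided permutation test of 4 tumors against 4 cannot give a p below 0.0286, and 4 pairs reached it, each with an adjusted p of 0.0571, so none passed. The log2 ratio of Cd8a to Cd4 was 2.54 ± 0.20 (SD) in ALPN-202 tumors and 1.51 ± 0.31 in anti-PD-L1 tumors, a difference of 1.03. The ratio of Foxp3 to Cd8a was lower by 1.11 (-3.02 ± 0.43 against -1.91 ± 0.31) and that of Tcf7 to Cd3e lower by 1.95 (1.02 ± 0.19 against 2.97 ± 1.09), and Pdcd1 to Cd3e was higher by 0.66. Tcf7 itself differed by -0.18 ± 0.22 (SE), so its lower ratio mostly restates the higher Cd3e. In anti-PD-L1 tumor 4, Tcf7 was at 33.2 CPM beside 1.42 CPM of Cd3e. Whether the Tcf7 transcripts came from T cells was not tested. Gzmb to Cd3e (0.26, exact permutation p = 0.514) and Ifng to Cd3e (-0.43, exact permutation p = 0.571) differed by less than the spread between tumors. Without ALPN-202 tumor 4 the differences of Pdcd1, Gzmb and Ifng to Cd3e were 0.40, 0.14 and -0.92, and the lowest adjusted p of the 8 pairs was 0.114 (exact permutation test). With 3 tumors against 4 the smallest possible exact permutation p is 0.0571, so no pair could pass there.

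**Figure D2:**
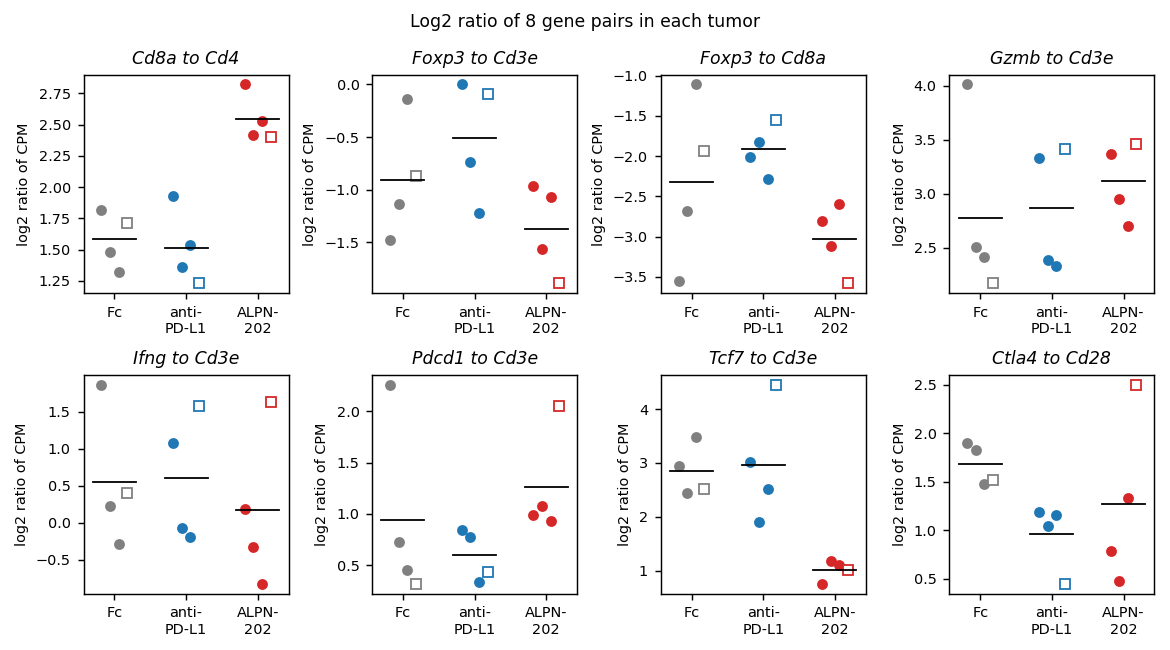
Log2 ratio of TMM-normalized CPM (vertical axis) of 8 gene pairs in each tumor of the 3 groups; points are tumors, the open square is replicate 4 and the bar is the mean. Cd8a to Cd4, Foxp3 to Cd8a, Tcf7 to Cd3e and Pdcd1 to Cd3e separate ALPN-202 from anti-PD-L1 tumors, and Gzmb to Cd3e overlaps.

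Myeloid cell genes followed the lymphocyte genes. Pattern and lectin receptors, with which monocytes, macrophages and neutrophils sense microbes and dying cells, were positive in 24 of 24, 23 at an unadjusted p under 0.05 and 15 without overlap, with a median of 1.22. 19 of them rose without the 2 libraries. Clec4d, a C-type lectin of monocytes, was at 138, 86.2, 98 and 106 CPM in ALPN-202 tumors and 44.3, 41, 22.5 and 17.5 CPM in anti-PD-L1 tumors and rose 3.37-fold (edgeR adjusted p = 0.0235). Ly6c2, which marks inflammatory monocytes, was at 42.5, 31, 32.4 and 23.5 CPM against 13, 11.2, 9.14 and 2.93 CPM and rose (log2 fold change 1.93, edgeR adjusted p = 0.0235). The list of monocyte and macrophage genes had 26 of 27 positive, and 13 rose. The macrophage marker Csf1r did not separate the groups (800, 682, 656 and 126 CPM against 374, 396, 352 and 220 CPM). ALPN-202 tumor 4 lay below every anti-PD-L1 tumor, and Csf1r rose only without the 2 libraries (log2 fold change 1.05, edgeR adjusted p = 0.0235). Arg1, an arginine-consuming enzyme of suppressive myeloid cells, was higher in all 4 tumors (921, 515, 617 and 642 CPM against 332, 327, 248 and 182 CPM) and rose (log2 fold change 1.30, edgeR adjusted p = 0.0235).

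Fcrls went the other way. This Fc receptor-like gene, known in mice as a marker of microglia and some resident macrophages, was at 12, 16, 16.2 and 21.6 CPM in ALPN-202 tumors and 44.1, 35.2, 31 and 34.9 CPM in anti-PD-L1 tumors, beside 31.8 to 55.8 CPM in Fc control tumors. The groups did not overlap. It had the smallest p of the named lower genes in all 12 tumors (log2 fold change -1.15 ± 0.23 SE, edgeR unadjusted p = 0.000293) and fell without the 2 libraries (log2 fold change -1.33, edgeR adjusted p = 0.0215).

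Genes of cross-presenting dendritic cells, which take up dying tumor cells and prime CD8 T cells, were positive in 11 of 13, and 6 rose. Clec9a, their receptor for dead cells, was at 7.15, 7.91, 3.59 and 5.22 CPM against 1.75, 1.3, 1.86 and 1.33 CPM and rose 3.86-fold (edgeR adjusted p = 0.0235). Xcr1, the receptor for a chemokine of activated CD8 T cells, was at 3.44, 5.34, 2.09 and 0.98 CPM against 0.875, 0.902, 0.746 and 0.444 CPM and rose (log2 fold change 2.24, edgeR adjusted p = 0.0356). MHC class II genes were positive in 11 of 11 with a median of 0.94, and 2 rose.

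**Figure D3:**
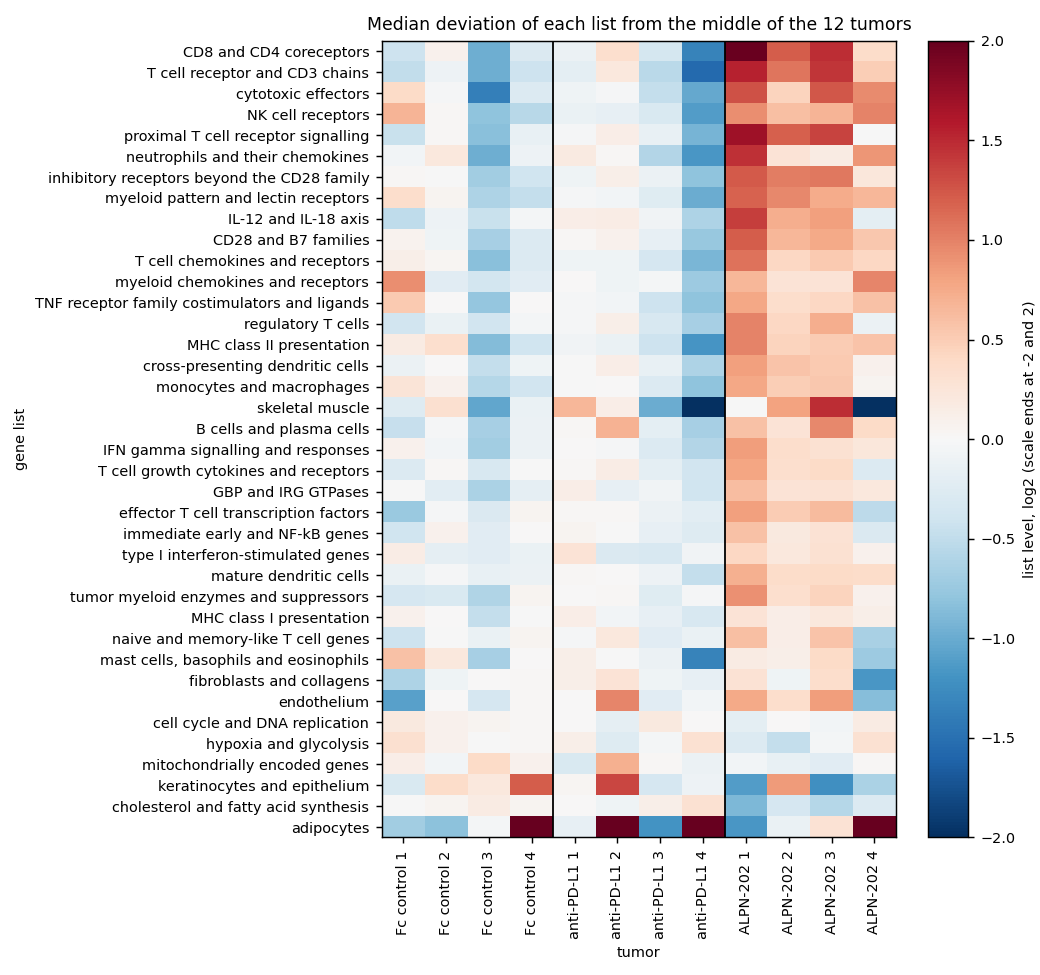
Level of each of 38 gene lists (rows) in each tumor (columns), as the median deviation of its genes from the middle of the 12 tumors on the log2 scale. ALPN-202 tumor 1 was highest for most T cell and myeloid lists, anti-PD-L1 tumor 4 was lowest for the T cell receptor list at -1.55, and the adipocyte list reached 6.03 in anti-PD-L1 tumor 2.

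Genes that signal or respond to IFNγ were positive in 18 of 20 with a median of 0.78, and 7 rose without the 2 libraries. The GBP and IRG GTPases, which interferons induce and which attack the vacuoles of intracellular microbes, were positive in 18 of 18 with a median log2 fold change of 0.57, 9 at an unadjusted p under 0.05 and 4 that rose without the 2 libraries. Their promoters are shown because interferons are known to act on these genes through them. In RefSeq windows of GRCm38.p6, from 250 bases before to 50 after the start, 11 of the 18 had a sequence. The letters GAAANNGAAA of an interferon-stimulated response element, on either strand, lay in 10 of these 11 (90.9%) against 3.49% of 27025 promoters, and TTCNNNGAA of a GAS element in 7 (63.6%) against 8.47%. Capitals mark both kinds of match, which did not overlap each other in these windows. Gbp2 is from chr3:142620413-142620712 (plus strand), Gbp5 from chr3:142496684-142496983 (plus strand) and Tgtp1 from chr11:48992197-48992496 (minus strand), each written 5′ to 3′.
Gbp2: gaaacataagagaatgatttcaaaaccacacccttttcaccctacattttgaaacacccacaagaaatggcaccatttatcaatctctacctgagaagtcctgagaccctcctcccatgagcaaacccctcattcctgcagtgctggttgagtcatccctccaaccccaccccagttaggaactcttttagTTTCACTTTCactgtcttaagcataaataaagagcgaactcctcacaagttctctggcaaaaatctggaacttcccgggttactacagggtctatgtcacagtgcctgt
Gbp5: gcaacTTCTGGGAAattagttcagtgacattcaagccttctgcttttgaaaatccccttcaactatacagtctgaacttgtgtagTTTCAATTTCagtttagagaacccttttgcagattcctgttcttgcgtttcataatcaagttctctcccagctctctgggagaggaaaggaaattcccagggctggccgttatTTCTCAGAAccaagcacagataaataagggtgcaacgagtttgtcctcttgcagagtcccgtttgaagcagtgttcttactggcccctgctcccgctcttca
Tgtp1: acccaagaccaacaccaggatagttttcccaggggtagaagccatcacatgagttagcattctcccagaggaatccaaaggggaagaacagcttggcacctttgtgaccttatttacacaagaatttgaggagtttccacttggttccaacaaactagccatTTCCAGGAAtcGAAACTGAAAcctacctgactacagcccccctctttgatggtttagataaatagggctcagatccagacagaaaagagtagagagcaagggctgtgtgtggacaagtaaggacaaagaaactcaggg
Gbp2, with the response element alone, was at 1270, 999, 1066 and 1088 CPM in ALPN-202 tumors and 969, 765, 867 and 674 CPM in anti-PD-L1 tumors, a small separation (log2 fold change 0.43 ± 0.24 SE). Gbp5, with 1 response element and 2 GAS matches, was at 181, 125, 119 and 54.9 CPM against 85.8, 79.9, 70.2 and 63.3 CPM and rose without the 2 libraries (log2 fold change 0.89, edgeR adjusted p = 0.0235). Tgtp1, with 1 of each, was at 28.3, 24.2, 24.5 and 36.9 CPM against 18.3, 16.1, 17.1 and 11.3 CPM and did not pass (edgeR adjusted p = 0.146). Without the 4 adipocyte-high tumors the median of the 18 GTPase genes was 0.32. A match describes letters only, and binding at these windows was not measured.

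Cholesterol and fatty acid synthesis genes were lower in ALPN-202 tumors. All 20 tested were negative, 16 at an unadjusted p under 0.05 against 2.47% of all genes, with a median log2 fold change of -0.76. 6 had groups that did not overlap, and 12 fell without the 2 libraries, where the median was -1.0. Cells make these enzymes under the control of SREBP factors, which become active when sterols are low. Scd2, a fatty acid desaturase, was at 483, 605, 568 and 508 CPM in ALPN-202 tumors and 1160, 888, 1270 and 1687 CPM in anti-PD-L1 tumors, beside 748 to 1586 CPM in Fc control tumors. The groups were separate (log2 fold change -1.21 ± 0.24 SE, edgeR unadjusted p = 0.000344), and Scd2 fell without the 2 libraries (-1.22, edgeR adjusted p = 0.0232).

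Within the sterol branch, Srebf2, the sterol-sensing transcription factor, was at 109, 120, 124 and 92.7 CPM against 168, 148, 166 and 166 CPM and fell (-0.50, edgeR adjusted p = 0.0232). Fdps and Mvd of the mevalonate pathway and Cyp51 and Insig1 fell without the 2 libraries by 1.09, 0.88, 1.00 and 1.16 on the log2 scale (edgeR adjusted p = 0.0215, 0.0215, 0.0232 and 0.0232). ALPN-202 tumor 4 was the exception for these 4 genes: Cyp51, for example, was at 61.8, 71 and 56.1 CPM in the other ALPN-202 tumors, 203 CPM in tumor 4 and 92.4 to 148 CPM in anti-PD-L1 tumors. No promoter of 12 list genes with a sequence held the letters TCACNCCAC of a sterol regulatory element, against 1.22% of all promoters, which says only that these letters are not in the windows.

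The fatty acid branch moved with adipocyte genes. Scd1, the desaturase that adipocytes and liver express most, was at 124, 190, 186 and 373 CPM against 265, 8660, 248 and 1384 CPM, so that the 2 high values came from anti-PD-L1 tumors 2 and 4. The adipocyte hormone gene Adipoq was at 391 and 73.9 CPM in these tumors, 113 CPM in ALPN-202 tumor 4 and at most 4.49 CPM in the other 5 tumors compared. Of 16 adipocyte genes 0 were positive, 8 were lower at an unadjusted p under 0.05, and their median was -2.99. Without the 4 adipocyte-high tumors the adipocyte median was 0.71, Fasn and Acaca, the enzymes of fatty acid chain building, differed by -0.30 and -0.15 in place of -1.92 and -1.37, and Scd1 by -0.63 in place of -3.60. Scd2 differed by -1.15 in the same tumors, and the list median was -0.62 with 12 genes lower at an unadjusted p under 0.05.

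**Figure D4:**
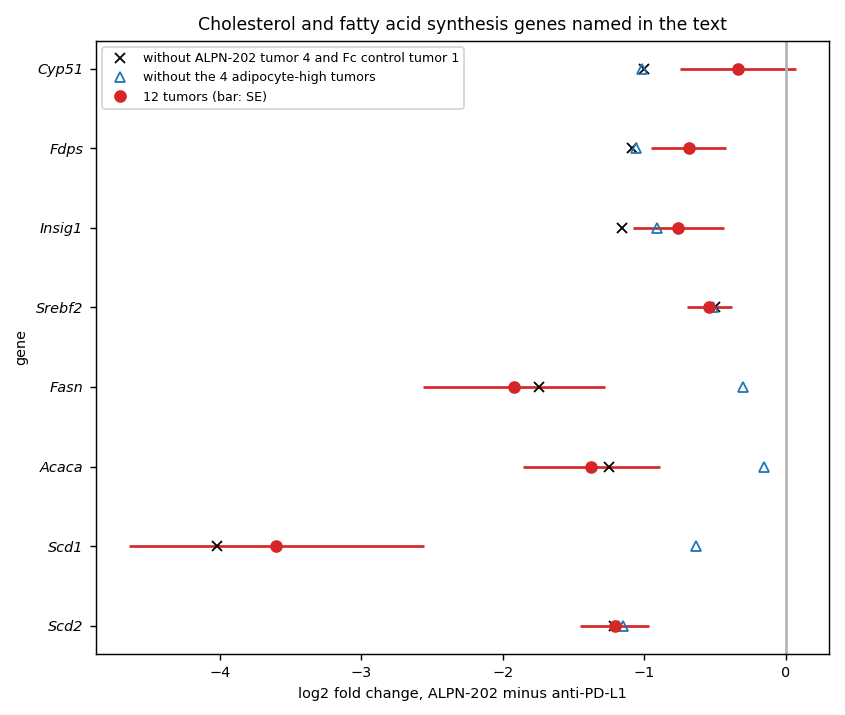
Log2 fold change of the 8 genes of the cholesterol and fatty acid synthesis list that the text names, ALPN-202 minus anti-PD-L1, in all 12 tumors (circles with SE), without ALPN-202 tumor 4 and Fc control tumor 1 (crosses) and without the 4 adipocyte-high tumors (triangles). Every circle is below 0, and Fasn, Acaca and Scd1 move toward 0 without the adipocyte-high tumors while Scd2 stays near -1.15.

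Genes lower outside this pathway included Mme, which encodes the cell surface peptidase neprilysin. It was at 6.33, 18.6, 18.4 and 20.6 CPM against 57.7, 37.1, 34.4 and 75 CPM and fell to 0.28 of the anti-PD-L1 level without the 2 libraries (log2 fold change -1.84, edgeR adjusted p = 0.0282). Aacs, which activates acetoacetate for lipid synthesis, was at 73, 100, 88.1 and 79 CPM against 116, 156, 127 and 140 CPM and fell (-0.66, edgeR adjusted p = 0.0235). Pcyt2, an enzyme of phosphatidylethanolamine synthesis, fell by 0.57 on the log2 scale (edgeR adjusted p = 0.0227). Ido1, an enzyme that degrades tryptophan and is induced by interferon, was at 2.61, 2.29, 1.69 and 10.1 CPM against 1.86, 47, 1.58 and 21.9 CPM. Its high values were in the adipocyte-high tumors, and without these its log2 difference was 0.33 in place of -2.23.

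Cell cycle, hypoxia and stromal lists lay near the median of all genes. None of 28 cell cycle genes reached an unadjusted p of 0.05 (median -0.05), and Top2a, a proliferation marker, was at 699 to 778 CPM in ALPN-202 tumors and 736 to 927 CPM in anti-PD-L1 tumors. Hypoxia and glycolysis genes had a median of -0.15, and fibroblast and collagen genes and endothelium genes 0.15 each. The stromal medians depended on the tumors used. Without the 4 adipocyte-high tumors they were 0.30 for fibroblast and collagen genes and 0.81 for endothelium genes. There 7 of 25 and 8 of 19 were higher at an unadjusted p under 0.05, against 8.71% of all genes, and 0 were lower. The hypoxia and glycolysis median was -0.35 in that fit, with 3 of 20 lower at an unadjusted p under 0.05 against 1.31% of all genes. Without ALPN-202 tumor 4 and Fc control tumor 1 this median was -0.32, and 1 of these genes fell. Type I interferon-stimulated genes were positive in 23 of 24 with a median of 0.44, 7 were higher at an unadjusted p under 0.05 and 4 rose. TNF receptor family costimulators and ligands were positive in 11 of 11 with a median of 1.03, and 1 rose. B cell and plasma cell genes were positive in 5 of 5 with a median of 0.84, and 0 rose. Skeletal muscle genes were positive in 16 of 16 with a median of 0.87 and none at an unadjusted p under 0.05, and Myh1 ranged from 0.327 to 79.4 CPM within the ALPN-202 group.

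**Figure D5:**
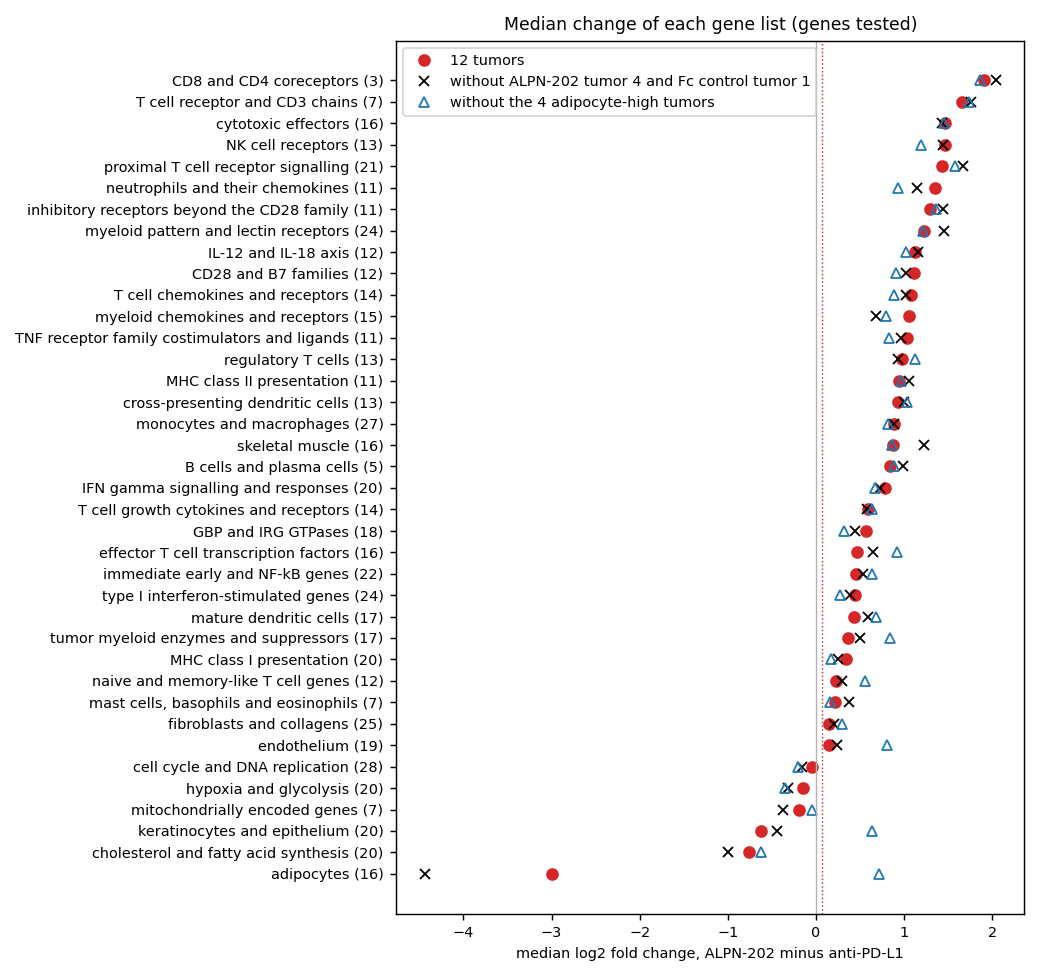
Median log2 fold change of each of 38 gene lists, ALPN-202 minus anti-PD-L1 (horizontal axis), with the number of genes tested in parentheses, for all 12 tumors (circles), without ALPN-202 tumor 4 and Fc control tumor 1 (crosses) and without the 4 adipocyte-high tumors (triangles); the dotted line is the median of all genes tested, 0.07. T cell lists lie at 1.66 and 1.90, cholesterol and fatty acid synthesis at -0.76 and adipocytes at -2.99, the last turning to 0.71 without the adipocyte-high tumors.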

How the data were processed

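RNA-seq of 12 tumors was used, 4 per group. From full-length cDNA the authors obtained single reads, mapped these to NCBIM37, a mouse assembly, and deposited raw counts per gene, unnormalized. A second deposited table holds TPM, which the authors derived from counts and gene lengths. The methods name STAR and the submitters' notes TopHat 1.4.1 and HTSeq 0.4.1, so the aligner is not settled. The count table held 33018 lines, and 0 per-sample columns were left unused. Nothing states that strand was counted, so overlapping and antisense genes cannot be told apart, and reads of near-identical family members (granzymes, GTPases) may be split between them.

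Counts were filtered with filterByExpr (minimum count 10, minimum total 15), normalized by TMM and tested with edgeR 4.0.16 (R 4.3.3), whose quasi-likelihood fit took in the 12 tumors together. The Benjamini-Hochberg adjustment ran over the whole set of 14142 genes, and an adjusted p under 0.05 was called. The fit was tested on simulated data. The simulated counts held no length trend and no adipocyte-high tumors. DESeq2 1.42.0 and limma 3.58.1 were alternatives, as were other normalizations, filters, TPM with pseudocounts of 1 and 0.1, a length-trend correction, the replicate block and leaving out libraries. Gene ratios used log2 of CPM plus 0.1 and an exact two-sided permutation test (SciPy), adjusted over 8 pairs.

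Members, the 38 gene lists and the tests were chosen with earlier results of these data known. Named genes were drawn from the 12 lowest p-values per direction, with and without ALPN-202 tumor 4 and Fc control tumor 1, up to 4 per list with the smallest p, the targets of the agents and their partners, members of the gene pairs and the 2 largest folds in each direction. Gbp2, Gbp5, Tgtp1, Scd1, Fasn, Acaca, Ido1, Adipoq, Csf1r and Krt5 were named after their values were seen. P-values measure only the spread between these tumors.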

Additional observations from a re-analysis of the deposited data

Results flagged for a closer look

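In 182 groups of 4 tumors, 15 held a value that stood apart from the other 3 of its group by Dixon's test, where chance flags about 1 in 20. ALPN-202 tumor 1 stood apart for Gzmb (167 CPM, high), Mme (6.33 CPM, low) and the levels of the T cell chemokine list (1.09) and the mature dendritic cell list (0.71) on the log2 scale. ALPN-202 tumor 4 was high for the sterol genes Mvd (30 CPM), Cyp51 (203 CPM) and Insig1 (48.3 CPM) and for Ido1 (10.1 CPM) and Adipoq (113 CPM). This is the tumor with the length trend and high adipocyte genes. Fc control tumor 1, the other library with the length trend, was not adipocyte-high. It was highest of the Fc control tumors for Mvd (40.6 CPM), Cyp51 (275 CPM) and Insig1 (75.7 CPM), with Ido1 at 0.836 and Adipoq at 5.51 CPM. The part of the length trend or of adipocyte genes in these values was not tested. ALPN-202 tumor 2 was low for Cthrc1 (10.8 CPM). Anti-PD-L1 tumor 4 was low for Tbx21 (0.889 CPM) and for the myeloid chemokine list (-0.72) and the mast cell, basophil and eosinophil list (-1.34). Anti-PD-L1 tumor 2 was high for Scd1 (8660 CPM) and low for Srebf2 (148 CPM).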

How the results depend on the processing

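The 12-tumor edgeR fit called 0 genes, as did the fits with RLE, library size only, either filter, the 8 tumors alone, length offsets, the replicate block, limma on TPM, the 4 adipocyte-high tumors left out, or any 1 of the 12 tumors left out (0 to 0 genes higher and lower), the Fc control tumors added after seeing the data. DESeq2 called 158 higher and 44 lower, limma-voom with quality weights 1647 and 342, the fit without ALPN-202 tumor 4 and Fc control tumor 1 647 and 101, and the fit without all 5 length-trend or adipocyte-high libraries, chosen after seeing the data, 751 and 99. The cause of these differences was not tested. Groups did not overlap for 194 genes higher and 862 lower on TPM and for 387 and 736 with library size only. The replicate number as a block left 857 higher and 194 lower genes with unadjusted p under 0.05. Only 1 of 12 libraries was closest to libraries of its own number, so these did not pair the tumors.

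Of 988 list medians under alternatives, 925 moved by less than the spread between tumors, 58 by more and 5 changed sign. Adipocyte genes turned to 0.71 without the 4 adipocyte-high tumors and 0.70 without all 5, and keratinocyte genes to 0.64 and 0.63, and to 0.45 with the strict filter. Likewise Ido1 turned to 0.33 and 0.31, Adipoq to 0.50 in both and Tcf7 to 0.00 without the 4. With 1 tumor left out, Adipoq ranged from -5.38 to 0.16 (without anti-PD-L1 tumor 2), and the Ctla4 to Cd28 ratio from -0.09 (without ALPN-202 tumor 4) to 0.58. What size of difference 4 tumors a group, with totals from 3988266 counts, can show was not measured.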

Other observations

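Genes of the IL-12 and IL-18 axis, cytokines that push T and NK cells toward IFNγ, were positive in 12 of 12 with a median log2 fold change of 1.12, and 7 rose without ALPN-202 tumor 4 and Fc control tumor 1. Il12rb2, the inducible chain of the IL-12 receptor, was at 17.2, 12.6, 11.9 and 2.94 CPM in ALPN-202 tumors and 3.94, 5.61, 3.64 and 1.6 CPM in anti-PD-L1 tumors, so that ALPN-202 tumor 4 lay inside the anti-PD-L1 range, and it rose without the 2 libraries (log2 fold change 1.88, edgeR adjusted p = 0.0275). Il18bp, the secreted inhibitor of IL-18, was at 168, 131, 114 and 59.8 CPM against 76.3, 54.5, 39.3 and 31 CPM and rose too (1.43, edgeR adjusted p = 0.0259). Il7r, the receptor of a T cell survival cytokine, was at 65.5, 50.1, 40.8 and 11.4 CPM against 25.8, 18, 16 and 16.2 CPM, with ALPN-202 tumor 4 below every anti-PD-L1 tumor. It rose without the 2 libraries (1.42, edgeR adjusted p = 0.0215).

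The glucose transporter gene Slc2a3 was at 18.2, 17.1, 16.6 and 11.1 CPM against 9.95, 8.92, 9.6 and 9.07 CPM and rose (0.84, edgeR adjusted p = 0.0215). Stromal genes were mixed. Cthrc1, a matrix protein gene of activated fibroblasts, was at 17.3, 10.8, 17.9 and 17.3 CPM against 4.59, 8.02, 6.25 and 2.67 CPM and rose (1.48, edgeR adjusted p = 0.0315), whereas Col6a1, a collagen VI chain, overlapped between groups (389 to 980 CPM against 826 to 1548 CPM) and did not pass (-0.68, edgeR adjusted p = 0.155).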
